A study of Caenorhabditis elegans with 2 samples.

Results

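The nhr genes are the nuclear hormone receptor genes of Caenorhabditis elegans that carry an nhr- symbol. Members were all protein-coding genes with such a symbol in the WBcel235 gene models of Ensembl, which gave 269 of 19973 nuclear protein-coding genes. Each was searched for a summit of UNC-62 chromatin immunoprecipitation sequencing (ChIP-seq) between 1000 bp upstream and 200 bp downstream of any of its transcript starts, called its promoter window here. The rule itself reads gene symbols and no measured value.

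Nuclear hormone receptors are transcription factors that bind DNA through a zinc finger domain and, in many cases, a small lipophilic ligand through a second domain. The nematode family is much larger than that of other animals, mainly through expansion of receptors related to HNF4, a vertebrate regulator of metabolism. A few members are orthologs of receptors found across animals, among them nhr-23 and nhr-25, which act in molting and epidermal development, and others, such as nhr-49, govern fat metabolism and the response to fasting. UNC-62 is the worm's Meis-class homeodomain protein, a cofactor of Hox proteins.

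ChIP-seq was made on whole animals of strain OP600, genotype unc119(ed3) with the transgene wgIs600, which holds unc-62 joined to TY1, EGFP and FLAG tags together with an unc119 copy. There was a single group, UNC-62 ChIP, with 2 biological replicates of males and females pooled, and the labels place the animals both as dauer and as D4 worms, so the stage is not settled here. No untagged, mutant or input sample was used here, the promoter that drives the transgene is not named in the labels, and whole animals mix all tissues, so the tissue in which a gene was bound cannot be told. Whether the replicates come from separate cultures is not stated beyond the word biological, and the sequencing depth is unknown.

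Each replicate had its own ce11 list of 30000 regions, which includes background by design. The list called on both replicates pooled held 2155 regions (2136 nuclear) and by its label also includes background. The list that passed the authors' irreproducible discovery rate threshold, called reproducible here, held 95 (76 nuclear). The signal of a region is the authors' own value on an unstated scale, so it is read only within its list, beside its rank (1 is the highest). Even the best q value in the pooled list was 0.151. At the 18 pooled summits in nhr promoter windows, described below, q ran from 0.167 (nhr-14) to 0.941 (nhr-71). A pooled summit is therefore read as a listed region and not as an established binding site. Shares carry 95% exact binomial intervals, which cover counting error only and treat genes as independent. With 1 group and region lists alone, no test of the differences between nhr genes and other genes was made.

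No nhr gene had a reproducible summit in its promoter window, and 18 had a pooled one. The reproducible count was 0 of 269, for which the interval reaches 1.36%, against 44 of 19704 other protein-coding genes (0.223%). Over all protein-coding genes the share was 0.22%, so that fewer than 1 member would be reached at that rate. A pooled summit lay in the window of 18 of 269 nhr genes, or 6.69% (4.01 to 10.4), against 809 of 19704 other genes, or 4.11% (3.83 to 4.39). The share over all protein-coding genes was 4.14%, which lies inside the interval of the nhr share. A share of this size was not particular to nhr genes. The cuticle collagen col genes had 11 of 156, or 7.05% (3.57 to 12.3), and the homeobox ceh genes 4 of 63, or 6.35% (1.76 to 15.5).

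The strongest pooled summit at an nhr promoter belonged to nhr-14, an X-linked receptor gene whose loss alters iron uptake and innate immunity. Its pooled signal was 29.7, just under the lowest signal in the reproducible list, 31.2. In replicate 1 it had a signal of 18.3 at rank 88, and in replicate 2 a signal of 9.30 at rank 2278. The summit lay 468 bp upstream of the nearest start, in the region X 8476474 to 8476817, inside an exon of the non-coding RNA gene T01B10.13. The gene (WBGene00003613) also had a pooled summit 856 bp inside its body, in an intron, with signal 24.1 at rank 218. The replicates were opposite at these summits: the intron summit ranked 64 in replicate 2 and had no summit within 200 bp in replicate 1.

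Next in order came nhr-47 and nhr-3. The nhr-47 region (V 5505065 to 5505408) had a pooled signal of 26.8 at rank 152, with 19.4 at rank 76 in replicate 1 and 7.26 at rank 6796 in replicate 2. Its summit lay 16 bp upstream of the start, in an exon of the non-coding RNA gene C24G6.10, and was shared with the promoter window of dnj-19, a gene of a DnaJ-domain chaperone. In replicate 1 nhr-14 and nhr-47 were the 2 nhr genes with a promoter region at q below 0.05, and in replicate 2 there were 0. Those shares were 0.743% of nhr genes against 0.487% of other genes in replicate 1 (0.491% of all), and 0% against 0.345% in replicate 2 (0.34% of all).

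The gene nhr-3 held the single reproducible region found in the body of an nhr gene, 1 of 269 against 15 of 19704 other genes (0.0801% of all). That region, X 14560294 to 14560637, lay in an intron with its summit 1962 bp inside the nearest start, and had a pooled signal of 39.5 at rank 49. It ranked 1053 in replicate 1 (signal 10.6) and 207 in replicate 2 (signal 14.01). A second region of the gene, X 14557946 to 14558289, lay between genes, 386 bp ahead of the start, with a pooled signal of 25.1 at rank 187. That promoter region ranked 212 in replicate 1 (signal 14.4) and 6536 in replicate 2 (signal 7.33). The order of the 2 regions thus differed between the replicates.

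The other 15 genes had lower pooled signals, which ran from 15.7 at nhr-71 to 20.9 at nhr-114. The gene nhr-114, which links diet and vitamin B12 to germline health, ranked 434 in the pooled list, 247 in replicate 1 and 18370 in replicate 2. The reverse held at nhr-36, with ranks of 443 in the pooled list, 17989 in replicate 1 and 496 in replicate 2, and at nhr-161, with ranks of 517, 13389 and 1509 in the same order of lists. Ranks close to each other were seen at nhr-66, which acts with nhr-49 in lipid metabolism, with ranks of 2072 in replicate 1 and 2517 in replicate 2. Lower in the list were nhr-57, a target of the hypoxia factor HIF-1, at pooled rank 1491, and nhr-68, which senses persistent propionate together with nhr-10, at 1547. For nhr-1, nhr-93, nhr-135 and nhr-192 the replicate 2 list had no summit within 200 bp.

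**Figure D1:**
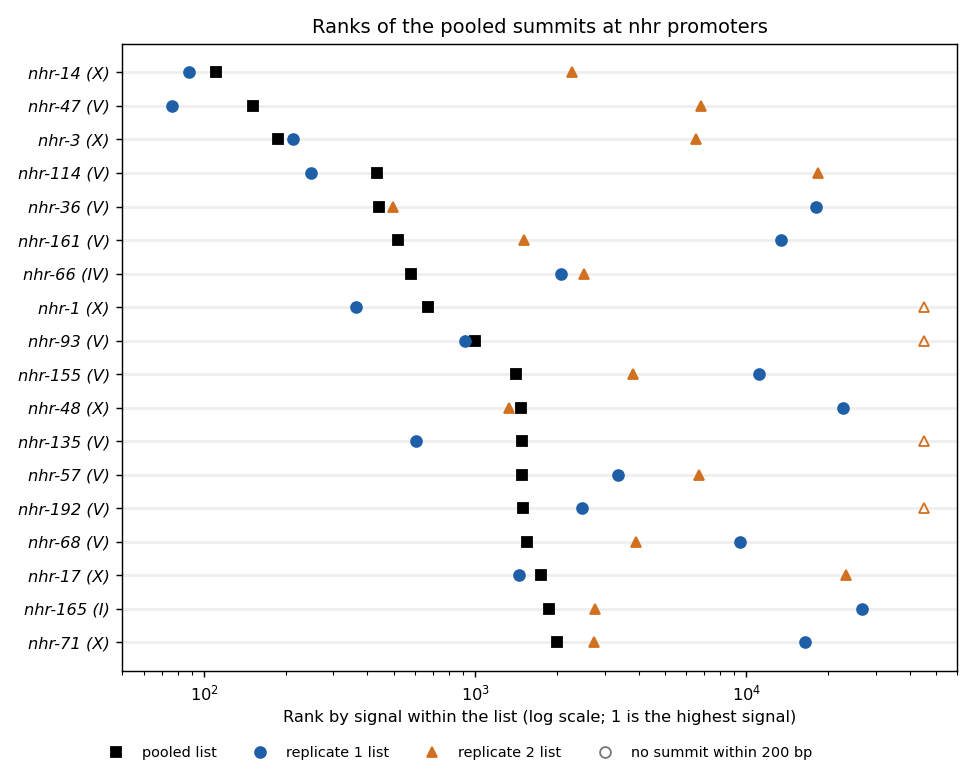
Rank by signal (log axis, stronger to the left) of the 18 pooled summits in nhr promoter windows, ordered by pooled signal, with the nearest summit within 200 bp in each replicate list (open marker where there was none). The first 4 genes ranked between 76 and 247 in replicate 1 and between 2278 and 18370 in replicate 2.

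Of the 14 nhr summits matched in both replicates, 7 ranked higher in replicate 1 and 7 in replicate 2. All 18 had a match within 200 bp in replicate 1 and 14 (77.8%) did in replicate 2, against 666 (replicate 1) and 648 (replicate 2) of the 732 pooled summits in promoter windows of other protein-coding genes. Among the first 1000 regions of the list were 7 (38.9%) in replicate 1 and 1 (5.56%), that of nhr-36, in replicate 2, while for other promoters the shares were 28.6% in replicate 1 and 28.7% in replicate 2. None of the 18 was among the first 1000 in both replicates, against 55 of 732 (7.51%). Counts out of 18 are small and carry no interval here, so nothing is read from these differences. Pooled signals had a median of 17.4 at nhr promoters (15.7 to 29.7) and 18.1 at other promoters (15.5 to 80.01).

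Sequence around 7 of these summits is shown, 100 bases to either side on the strand of the gene (WBcel235, RefSeq sequence): the top promoter summit, both summits of nhr-3, and promoter summits that hold a match to TGACAG, the core that Meis proteins bind, or to GAGAGA. Capitals mark these matches on either strand. The nhr-47 promoter summit, which also holds GAGAGA, is not shown.
nhr-14 promoter (chrX:8476546-8476746, minus strand): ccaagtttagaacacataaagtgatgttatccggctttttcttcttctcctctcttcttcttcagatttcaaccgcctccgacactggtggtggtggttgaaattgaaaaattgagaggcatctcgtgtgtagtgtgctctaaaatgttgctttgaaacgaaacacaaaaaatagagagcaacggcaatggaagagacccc
nhr-3 promoter (chrX:14558018-14558218, plus strand): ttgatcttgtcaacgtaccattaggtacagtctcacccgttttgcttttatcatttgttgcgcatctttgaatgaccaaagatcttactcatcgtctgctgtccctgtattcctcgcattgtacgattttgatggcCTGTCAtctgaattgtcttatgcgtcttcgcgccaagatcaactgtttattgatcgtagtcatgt
nhr-3 intron (chrX:14560366-14560566, plus strand): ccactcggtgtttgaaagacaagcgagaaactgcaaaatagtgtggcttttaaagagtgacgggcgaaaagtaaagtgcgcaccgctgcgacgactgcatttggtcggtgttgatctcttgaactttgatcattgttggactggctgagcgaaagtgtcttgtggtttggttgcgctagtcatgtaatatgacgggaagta
nhr-161 promoter (chrV:6983642-6983842, minus strand): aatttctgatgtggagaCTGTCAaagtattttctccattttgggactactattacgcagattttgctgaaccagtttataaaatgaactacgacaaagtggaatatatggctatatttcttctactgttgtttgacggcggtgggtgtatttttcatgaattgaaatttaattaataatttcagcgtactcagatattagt
nhr-155 promoter (chrV:539091-539291, plus strand): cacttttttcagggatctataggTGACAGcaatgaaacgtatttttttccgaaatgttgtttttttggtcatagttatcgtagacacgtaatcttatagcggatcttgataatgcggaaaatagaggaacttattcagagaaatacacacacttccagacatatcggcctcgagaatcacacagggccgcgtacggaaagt
nhr-48 promoter (chrX:15707639-15707839, plus strand): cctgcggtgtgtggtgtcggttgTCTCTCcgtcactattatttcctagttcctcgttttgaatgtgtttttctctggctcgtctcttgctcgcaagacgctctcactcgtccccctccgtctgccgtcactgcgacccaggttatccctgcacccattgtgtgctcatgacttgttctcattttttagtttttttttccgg
nhr-192 promoter (chrV:10070778-10070978, minus strand): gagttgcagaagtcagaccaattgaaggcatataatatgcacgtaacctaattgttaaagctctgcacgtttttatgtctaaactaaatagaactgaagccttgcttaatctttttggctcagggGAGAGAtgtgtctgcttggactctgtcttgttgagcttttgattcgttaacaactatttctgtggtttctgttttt

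TGACAG was present within 100 bp of 3 of 18 nhr summits, or 16.7% (3.58 to 41.4), namely those of nhr-3, nhr-155 and nhr-161, where the match was centred 38.5, 74.5 and 80.5 bases from the summit. At other promoter summits it was present in 53 of 732, or 7.24% (5.47 to 9.36). In a stretch of the same length before the most upstream start of every gene, with or without a listed summit, 7.43% of nhr genes and 6.35% of other genes held it. Within 250 bp of the summit the shares were 16.7% of nhr summits and 14.9% of other promoter summits. At the intron summit of nhr-3 it was absent.

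GAGAGA, the GA repeat unit, was present at 3 of 18 nhr summits, or 16.7% (3.58 to 41.4), those of nhr-47, nhr-48 and nhr-192, and at 188 of 732 other promoter summits, or 25.7% (22.6 to 29.0). Within 250 bp the shares were about equal, with 44.4% (21.5 to 69.2) of nhr summits and 43.2% (39.5 to 46.8) of other promoter summits. The stretch before the start held it in 22.3% of nhr genes and 16.3% of other genes. The letters AGATAA, which factors of the GATA class bind, were present at 2 nhr summits (11.1%), nhr-57 and nhr-68, against 11.9% of other promoter summits, and before the start in 18.6% of nhr genes and 15.8% of others. The Pbx and Hox pattern TGATNNAT was present at 1, that of nhr-66 (5.56%, against 15.03% of other promoter summits), and before the start in 19.3% of nhr genes and 16.2% of others. The composite TGATTGAC was present at 0 nhr summits and 4 others, and before the start in 0% of nhr genes and 0.629% of others. All were sought on both strands, and GAGAGA matches may overlap each other. Median GC content within 100 bp was 36.6% at nhr summits and 38.8% at other promoter summits.

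The distance of summits from the start was read in bins. In bins of 200 bp around the most upstream start, pooled summits were densest at nhr genes between 400 and 200 bp upstream, at 9.29 per 100 kb from 5 summits, where other genes had 3.81. Other genes peaked in the last 200 bp before the start, at 4.14 per 100 kb. In replicate 1 the same nhr bin held 30 summits (55.8 per 100 kb) against 36.4 per 100 kb at other genes. In replicate 2 it held 21 (39.03 per 100 kb), against 34.7 per 100 kb at other genes, and the highest nhr bin lay farther upstream, with 26 summits (48.3 per 100 kb).

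**Figure D2:**
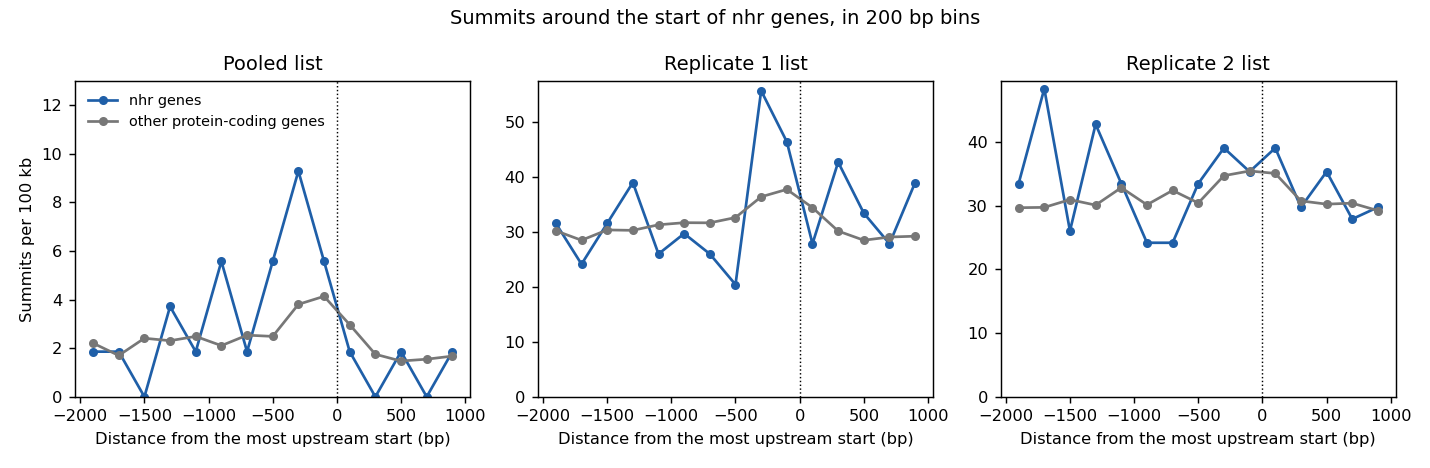
Summits per 100 kb in bins of 200 bp by distance from the most upstream transcript start (0, dotted), for nhr genes (blue) and other protein-coding genes (grey) in the pooled list and each replicate list. The nhr bin from 400 to 200 bp upstream reached 9.29 in the pooled list and 55.8 in replicate 1; in replicate 2 it was 39.03 and not the highest. Each nhr point of the pooled list rests on 0 to 5 summits.

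Because windows of neighbouring genes overlap, summits were also counted over the merged length of the windows. The nhr windows covered 399592 bp and held 18 pooled summits, or 4.50 per 100 kb, against 2.83 in windows of other genes and 2.13 over the whole nuclear sequence. The same densities in replicate 1 were 37.04 per 100 kb in nhr windows, 33.6 in other windows and 29.9 over the sequence. In replicate 2 they were 34.8, 32.5 and 29.9 in that order.

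In the full replicate lists, about as many nhr promoters as other promoters held a summit. A replicate 1 summit lay in the window of 117 of 269 nhr genes, or 43.5% (37.5 to 49.6), against 39.8% of other genes, and 39.8% of all protein-coding genes. A replicate 2 summit lay in 109, or 40.5% (34.6 to 46.7), against 38.8% of other genes, and 38.8% of all. Both intervals include the share of all genes. A summit in both lists was found at 61 nhr genes, in replicate 1 alone at 56, in replicate 2 alone at 48 and in neither at 104 (38.7%, against 41.1% of other genes). At 40 nhr genes, or 14.9% (10.8 to 19.7), summits of the replicates lay within 200 bp of each other, against 10.6% of other genes and 10.7% of all.

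Among the first 1000 regions of each replicate, the nhr count was higher in replicate 1 than in replicate 2. Replicate 1 placed 10 of 269 there, or 3.72% (1.80 to 6.73), against 2.20% of other genes and 2.22% of all. Replicate 2 placed 2, or 0.743% (0.0902 to 2.66), against 1.94% of other genes and 1.92% of all. Each interval includes the share of all genes, and the 2 intervals overlap. The 5 highest in replicate 1 were nhr-47, nhr-14, nhr-49, nhr-3 and nhr-114. The 5 highest in replicate 2 were nhr-36, nhr-205, nhr-23, nhr-57 and nhr-176. Of these, nhr-49 had a summit at rank 210 (signal 14.4) in replicate 1, with a match within 200 bp at rank 28901 in replicate 2 and none in the pooled list, while its best replicate 2 summit, at another start, ranked 2391. For nhr-205 the ranks were 606 in replicate 2 and 7325 in replicate 1, and for nhr-23 they were 1021 and 13738 in the same order.

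By chromosome, the nhr genes were unevenly spread and so were their summits. Chromosome V held 167 of the 269 members (62.1%, against 24.5% of other genes), and X held 23. On X, 6 of 23 nhr genes had a pooled summit, or 26.1% (10.2 to 48.4), against 145 of 2708 other X-linked genes, or 5.35% (4.54 to 6.27), and 5.53% of all X-linked genes. These 6 were nhr-14, nhr-3, nhr-1, nhr-48, nhr-17 and nhr-71. Also on X, 4 of 27 col genes had a pooled summit, or 14.8% (4.19 to 33.7), and 1 of 18 ceh genes did, or 5.56% (0.141 to 27.3). On V, 10 of 167 had a pooled summit, or 5.99% (2.91 to 10.7), against 3.02% of other genes there and 3.12% of all. The remaining chromosomes gave 1 of 33 on IV (nhr-66), 1 of 23 on I (nhr-165), 0 of 15 on II and 0 of 8 on III, against 3.84% to 5.09% of other genes on these chromosomes.

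The X-linked count differed between the replicates read alone. Read as its first 2155 regions, the size of the pooled list, replicate 1 alone gave 6 of 23 X-linked nhr genes (26.1%, against 4.87% of other X-linked genes). Of these, 4 were among the 6 with a pooled summit (nhr-1, nhr-3, nhr-14 and nhr-17) and 2 were not (nhr-35 and nhr-40). Replicate 2 alone gave 1 of 23 (4.35%, against 4.87%), which was nhr-48, also with a pooled summit. At the summit of nhr-71 the rank was 2751 in replicate 2 and 16373 in replicate 1. In the full lists both replicates were high on X: each had a summit at 17 of 23 nhr genes, or 73.9% (51.6 to 89.8), against 43.1% of other X-linked genes in replicate 1 and 43.5% in replicate 2. Summits of both replicates within 200 bp of each other were found at 11 of 23, or 47.8% (26.8 to 69.4), against 11.7% of other X-linked genes. For X-linked col genes this held at 7 of 27, or 25.9% (11.1 to 46.3), and for X-linked ceh genes at 1 of 18, or 5.56%. On V, the like shares were 9.58% (5.58 to 15.1) of nhr genes and 8.97% of other genes.

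**Figure D3:**
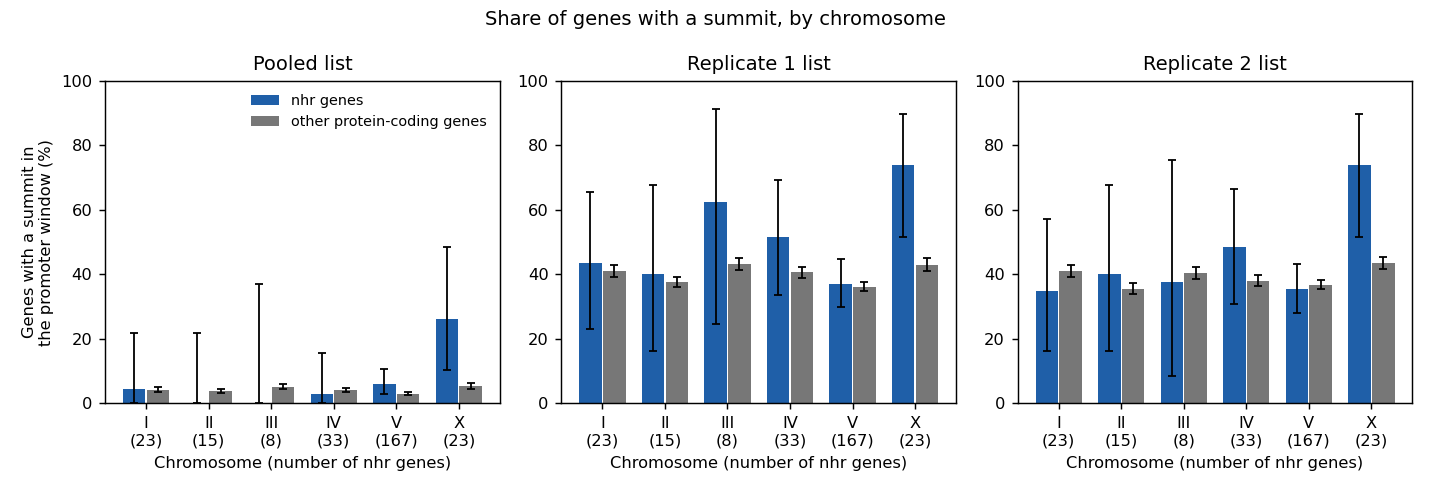
Percentage of genes with a summit in the promoter window, by chromosome, for nhr genes (blue) and other protein-coding genes (grey) in the pooled list and each replicate list; error bars are 95% exact binomial intervals. On X the nhr bars stand at 26.1%, 73.9% and 73.9%, against 5.35%, 43.1% and 43.5% for other genes.

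The X-linked members varied widely in rank. In replicate 1 the best were nhr-14 (rank 88), nhr-3 (212), nhr-1 (362), nhr-17 (954) and nhr-35 (1198), and in replicate 2 nhr-48 (1334), nhr-14 (2278), nhr-71 (2751), nhr-3 (3385) and nhr-32 (4325). Among the lowest ranked with both replicates within 200 bp were nhr-91, a receptor of the germ cell nuclear factor class (25065 in replicate 1 and 20166 in replicate 2), and nhr-25, the NR5A receptor of epidermal development (25004 and 10995 in the same order). These are best ranks in the window, and those of nhr-25 need not belong to the pair within 200 bp. For nhr-120, nhr-173 and nhr-255 neither replicate list held a summit in the window.

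**Figure D4:**
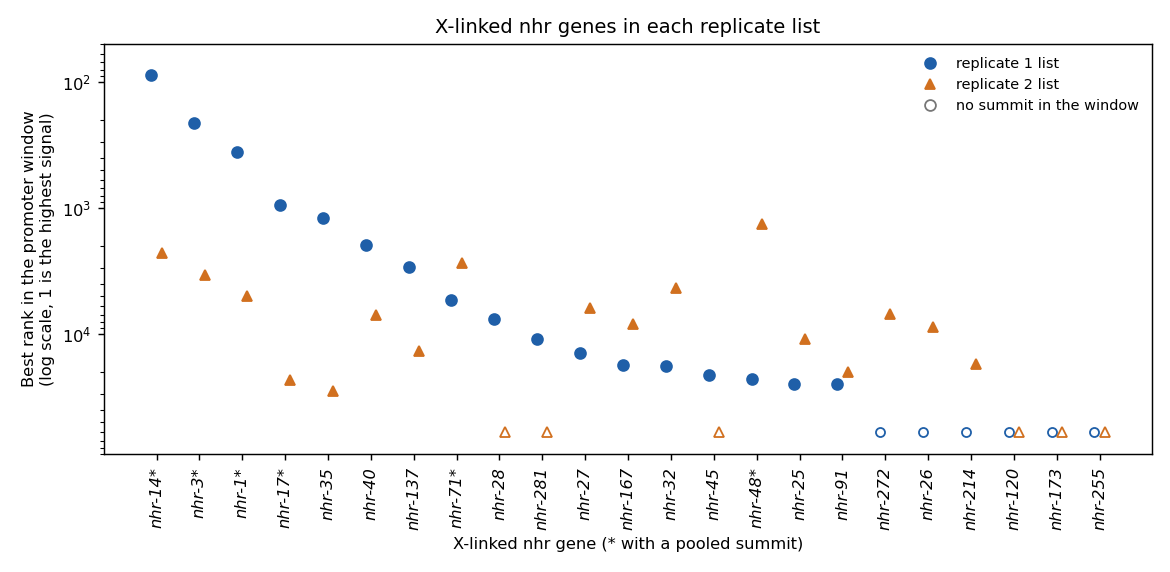
Best rank (log axis, stronger upwards) of any summit in the promoter window of the 23 X-linked nhr genes in the replicate 1 list (circles) and the replicate 2 list (triangles), with open markers where the list held none and asterisks at the 6 genes with a pooled summit. In replicate 1, 4 genes ranked within the first 1000, and in replicate 2 there were 0.

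X-linked nhr genes also had more upstream space. The median distance from the most upstream start to the next protein-coding gene was 5034 bp for X-linked nhr genes and 2108 bp for other X-linked genes, and on V it was 1033 bp for nhr genes and 943 bp for other genes. Among genes with at least 1000 bp of such space, 6 of 19 X-linked nhr genes (31.6%, 12.6 to 56.6) and 5.81% of other X-linked genes had a pooled summit. The mean window length, which grows with the number of annotated starts, was 1697 bp for X-linked nhr genes and 1480 bp for other X-linked genes. Per 100 kb of merged window on X there were 15.4 pooled summits at nhr genes and 3.68 at other genes. Replicate 1 had 69.2 per 100 kb at nhr genes and 37.3 at other genes, and replicate 2 had 53.8 at nhr genes and 36.1 at other genes. The part of spacing and window length in the X-linked share was not tested beyond these values.

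By role, the counts are set beside the shares over all genes given above, 4.14% in the pooled list, 39.8% in replicate 1 and 38.8% in replicate 2. Of 11 receptors with orthologs across animals 1 had a pooled summit, nhr-48 (signal 16.6, rank 1480), a relative of nhr-8 and daf-12. Of the 11, 8 had a replicate 1 summit, 7 a replicate 2 summit and 6 both within 200 bp (10.7% of all genes). Among the first 1000 of either list were 0, where all genes had 2.22% in replicate 1 and 1.92% in replicate 2. The molting receptor gene nhr-23 ranked 13738 in replicate 1 and 1021 in replicate 2, and nhr-85, the Rev-erb class gene of developmental timing, ranked 28069 in replicate 1 and 1949 in replicate 2. Summits were found in neither list for nhr-67, the tailless ortholog, and nhr-111.

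Receptors of fat and nutrient metabolism had 3 of 12 with a pooled summit (4.14% of all genes): nhr-114 (signal 20.9), nhr-66 (19.7) and nhr-68 (16.5). Of the 12, 9 had a replicate 1 summit (39.8% of all genes) and 7 a replicate 2 summit (38.8%). Among the first 1000 of replicate 1 (2.22% of all genes) were nhr-49 and nhr-114. For nhr-80, which acts in fatty acid desaturation, replicate 1 had a summit at rank 12629 and replicate 2 had none. Neither replicate had a summit at nhr-62, a receptor of the response to dietary restriction, or at nhr-13.

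Stress, xenobiotic and immune receptors had 2 of 8 with a pooled summit, nhr-14 and nhr-57, and 6 of 8 in each replicate, where all genes had 4.14% in the pooled list, 39.8% in replicate 1 and 38.8% in replicate 2. The gene nhr-176, a receptor of the response to thiabendazole, had a replicate 2 summit at rank 1230 and none in replicate 1, and nhr-86 ranked 2918 in replicate 1 and 6297 in replicate 2. The lists overlap in nhr-8, which had a replicate 2 summit at rank 7820 and none in replicate 1. These counts come from lists of 8 to 12 genes, chosen with earlier results of these data known. Nothing is read from their differences.

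Of genes that work with the receptors, the highest ranks in the pooled list and in replicate 2 were at 2 partners. None of the 5 receptor genes daf-12, fax-1, odr-7, sex-1 and unc-55 had a pooled summit; daf-12, the dauer receptor, ranked 10033 in replicate 1 and 13306 in replicate 2. Among 8 partner and hormone synthesis genes 2 had a pooled summit, where 4.14% of all protein-coding genes did. They were din-1, the DAF-12 corepressor (signal 31.3, rank 94, also in the reproducible list), and cbp-1, a CBP/p300 acetyltransferase gene (signal 29.1, rank 117). In replicate 2 din-1 ranked 27 and cbp-1 ranked 26, while in replicate 1 din-1 ranked 270 and cbp-1 ranked 4418. The best replicate 1 summit of din-1 lay farther upstream of the nearest start than the gene's pooled and replicate 2 summits. The gene mdt-15, of the Mediator subunit that binds NHR-49, had a summit in replicate 1 alone (rank 18467). Of 6 targets of nhr-49, nhr-10 and nhr-68, among them the desaturase genes fat-5, fat-6 and fat-7, 0 had a pooled summit (4.14% of all genes). One of them, acdh-1, ranked 26366 in replicate 1 and 5377 in replicate 2. At the share over all genes, a count of 0 in lists of 5 or 6 genes says nothing about those genes.

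Outside their own promoter windows, 13 of 269 nhr genes held 15 pooled summits within the gene body, or 4.83% of genes (2.60 to 8.12), against 4.14% of other genes (3.86 to 4.42) and 4.15% of all. The summit in nhr-163 is 1 of these and is also the promoter summit of nhr-161. Median gene lengths were 2309 bp for nhr genes and 2020.5 bp for other genes. The strongest after nhr-3 was in an intron of nhr-19 (II 9603368 to 9603711, signal 25.01), at rank 1625 in replicate 1 and 1552 in replicate 2. Introns of nhr-27 on X held 3, at signals of 20.2, 18.3 and 17.4. That gene spans 102756 bp, so this is 2.92 per 100 kb, where the whole X sequence had 2.75. Others lay in introns of nhr-120, nhr-40 and nhr-46, in coding sequence of nhr-156, nhr-232, nhr-130 and nhr-163, in 3′ UTR sequence of nhr-31 and in 5′ UTR sequence of nhr-97.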

How the data were processed

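UNC-62 ChIP-seq regions of 2 biological replicates, both in 1 group, were read on build ce11 from 4 lists in narrowPeak format: 1 per replicate, 1 for both pooled, and the list labelled optimal IDR-thresholded. Per the deposited file lists, the replicate and pooled lists hold peaks and background as input for the irreproducible discovery rate (IDR) step. Aligner and peak caller: not given in the sources used here. The deposited signal (column 7) is the authors' value per region, and the deposited −log10 q value (column 9) was used for a threshold of 0.05. Depth is unknown. Regions on ce10 were not used, as no gene models of that build were used.

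Genes and transcript starts came from Ensembl (WBcel235, the assembly of ce11) and sequence from RefSeq of the same assembly; region ends lay within its chromosome lengths. Mitochondrial genes were left out. Summits were column 2 plus column 10, written 1-based. A replicate match was the nearest summit within 200 bp. Motifs were sought within 100 bp on both strands. Software was Python 3.11.15 with matplotlib 3.10.9, scipy 1.17.1 and numpy 2.4.6. Window assignment and matching were tested on simulated data.

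Members and gene lists were chosen with earlier results of these data known. The naming rule took nhr genes with a reproducible summit in the window, the 15 with the highest pooled signal, the 5 highest in each replicate, and up to 4 members of each list by pooled and then replicate 1 signal. Further genes, among them nhr-17, nhr-165 and nhr-71 and those named for X, for gene bodies and in the lists beyond that rule, were picked with their values in view. Alternatives covered the window, starts, list, overlap rule, chromosome V and each replicate.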

Additional observations from a re-analysis of the deposited data

How the results depend on the processing

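The excess of nhr genes over other genes in the pooled list, 2.59 percentage points, kept its direction under all 9 alternatives (1.09 to 3.39). Leaving out a replicate gave 1.09 and 1.70. In the first 1000 pooled regions the nhr share itself was 3.35%, against 2.21% of other genes. On X the difference of 20.7 points ran from −0.527 to 21.2 when each replicate was left out in turn, the low value being without replicate 1. On autosomes the difference was 0.971, ran from −0.0889 (without replicate 2) to 1.32 with a replicate left out, and was −1.73 without chromosome V (2.53% of nhr genes against 4.26%). The X and autosome comparisons were chosen after seeing the data.

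In the 500 bp upstream to 100 bp downstream window the shares of nhr and other genes were 32.0% and 24.7% in replicate 1, 27.9% and 23.1% in replicate 2, and 9.29% and 5.97% for both within 200 bp. With 2000 bp upstream to 500 bp downstream they were 61.3% and 60.1%, 61.7% and 59.9%, and 23.05% and 19.1%. With 1 start per gene replicate 2 gave 33.5% of nhr genes against 35.0% of other genes, which turns that order round, and both replicates 10.8% against 9.09%. Matching within 100 bp gave 10.4% against 7.27%. At q below 0.05 the shares were 0.743% against 0.487% in replicate 1 and 0% against 0.345% in replicate 2. GAGAGA within 250 bp was at 44.4% of nhr summits and 43.2% of other promoter summits. The reproducible count was 0 in every window tried. No paired analysis was possible because the replicates form 1 group. The window changes these shares by its construction; for the others the cause was not tested. The 18 pooled summits and the 23 X-linked genes limit what can be resolved.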

Other observations

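Near the edges of the promoter window, nhr-17 and nhr-135 had pooled summits 21 and 47 bp inside its upstream end, and nhr-36 had one 6 bp inside its downstream end. Just outside were summits of nhr-97 (27 bp beyond the upstream end, signal 18.2), nhr-21 (82 bp beyond it, signal 17.02) and nhr-232 (73 bp beyond the downstream end, signal 16.2). The summit assigned to nhr-161 lies in coding sequence of its neighbour nhr-163, and that of nhr-68 in coding sequence of H12C20.7.

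Many nhr genes stand in clusters. A start of another nhr gene lay within 5000 bp for 104 of 167 members on V (62.3%) and for 4 of 23 on X. On V this held for 4 of the 10 genes with a pooled summit and for 100 of the 157 without (63.7%), a split made after the values were seen. The median distance to the next nhr start was 8075 bp for those 10 and 3200 bp for the 157.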
